A study of Mus musculus with 8 samples.

Results

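The collagen genes were taken as the protein-coding rows of the deposited count table whose name has the form Col, a number, the letter a and a number, and 42 of the 27277 rows met this rule. They were divided by the known structure of their chains into 11 fibrillar genes, 6 type IV genes of the basement membrane and 25 others. The counts came from mouse primary hepatocytes, the main parenchymal cells of the liver, isolated by stepwise digestion and kept in culture for 24 h. There were 3 control and 3 knockout RNA libraries, and ChIP, the sequencing of DNA bound by a chosen protein, was done in 1 library per genotype. Controls carried the floxed allele Lcmr1f/f without Cre, and knockouts carried Lcmr1f/f with albumin-cre, which is driven by the albumin promoter, active in hepatocytes and in the fetal hepatoblasts from which bile duct cells also arise. All libraries of both genotypes received 100 nM glucagon for 12 h, so no unstimulated group exists. The sources used here give neither age nor sex. The series asks about the need for Lcmr1 in glucose production, and collagens are not its stated subject. Lcmr1 is now called Med19 and belongs to Mediator, the complex through which transcription factors act on RNA polymerase II. No label ties a library to an animal, so every p-value here reflects the spread among these libraries, and that spread may be technical.

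Collagens are secreted proteins built from chains that wind into triple helices. Fibrillar collagens (types I, II, III, V, XI, XXIV and XXVII) pack into the fibres that give tissue tensile strength, and type IV chains form the sheet-like network of basement membranes. The remaining types decorate fibrils, form beaded filaments, anchor epithelia, span cell membranes or, in types XV and XVIII, carry glycosaminoglycan chains and sit at basement membranes. In the liver, stellate cells and fibroblasts are the known main source of fibrillar collagen, whereas hepatocytes are a known source of type XVIII, whose cleaved end is endostatin.

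The libraries held between 22191786 and 26595249 counts, and collagen genes took between 0.167% and 0.213% of them. Levels are given as CPM, counts relative to library size after scaling by the trimmed mean of M values (TMM), a method that centres most genes on no change. That scaling has a large effect here, with factors of 0.773 to 0.837 in controls and 1.20 to 1.27 in knockouts, and without it the median log2 fold change of all tested genes moved from 0.01 to 0.60. Med19 itself stood at 7.50, 10.8 and 13.4 CPM in controls 1, 2 and 3 and at 2.91, 5.27 and 3.02 CPM in knockouts 1, 2 and 3 (log2 fold change -1.50, edgeR adjusted p = 0.012). Control 1 stood apart from the other controls: the chi-square per degree of freedom over genes was 151 and 144 against controls 2 and 3, and 7.44 between those. Hepatocyte markers were present in all libraries at 34834 to 139544 summed CPM. In the knockouts 11 of 11 were lower, beside 13% of all tested genes, with a median log2 fold change of -1.34. With library size alone Apoa1, Apob and Tat did not pass (edgeR adjusted p = 0.0637, 0.252 and 0.106). The Fgb call held in 7 of 11 alternative analyses.

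Of the 42 collagen genes, 30 had enough counts to test and 12 did not. Among the 30, 11 rose and 3 fell in the knockouts by the edgeR quasi-likelihood test at an adjusted p under 0.05, beside 12.6% of all tested genes that rose and 13% that fell (25.5% together). The genes that rose were Col1a2, Col5a2, Col4a1, Col4a2, Col4a4, Col4a5, Col6a2, Col7a1, Col8a1, Col15a1 and Col22a1. Those that fell were Col18a1, Col27a1 and Col6a6. The median log2 fold change of the tested collagen genes was 0.74, against 0.01 over all tested genes. Fold changes are knockout over control throughout, on the log2 scale. The counts depended on single libraries and on scaling. Without knockout 2 there were 4 higher and 1 lower, without knockout 1 or knockout 3 there were 5 and 1, without control 2 there were 6 and 2, and without control 3 there were 8 and 1. The all-gene shares fell as well. Without knockouts 2, 1 and 3 and controls 2 and 3, the higher share was 7.88%, 7.29%, 8.37%, 7.21% and 7.1%. The lower share was 8.71%, 7.11%, 8.87%, 8.13% and 7.88% in the same order. With library size alone, 18 collagen genes were higher and 0 lower, while 50.9% of all tested genes were higher and 4.08% lower (55% together). In that setting 23 collagen genes had an unadjusted p under 0.05 in edgeR, and the share of all tested genes at that threshold was not counted.

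The count filter asks for 3 libraries at its floor, and 22 of the 30 genes met it in both groups. A further 7 met it in the knockouts alone (Col4a4, Col4a5, Col8a1, Col9a3, Col22a1, Col23a1 and Col25a1) and Col6a6 met it in the controls alone, and such a gene could be tested because of its level in that group, so its fold change is not independent of the filter. Among the 22, 7 rose and 2 fell, with a median log2 fold change of 0.64. The remaining 12 members had at most 36 counts summed over the knockouts and 16 over the controls: Col2a1, Col11a1 and Col24a1 of the fibrillar class, Col4a6, and Col6a5, Col8a2, Col9a1, Col9a2, Col10a1, Col17a1, Col26a1 and Col28a1. Col11a1, Col26a1 and Col28a1 had 0 counts in all controls and 2, 3 and 4 counts in the knockouts together.

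**Figure D1:**
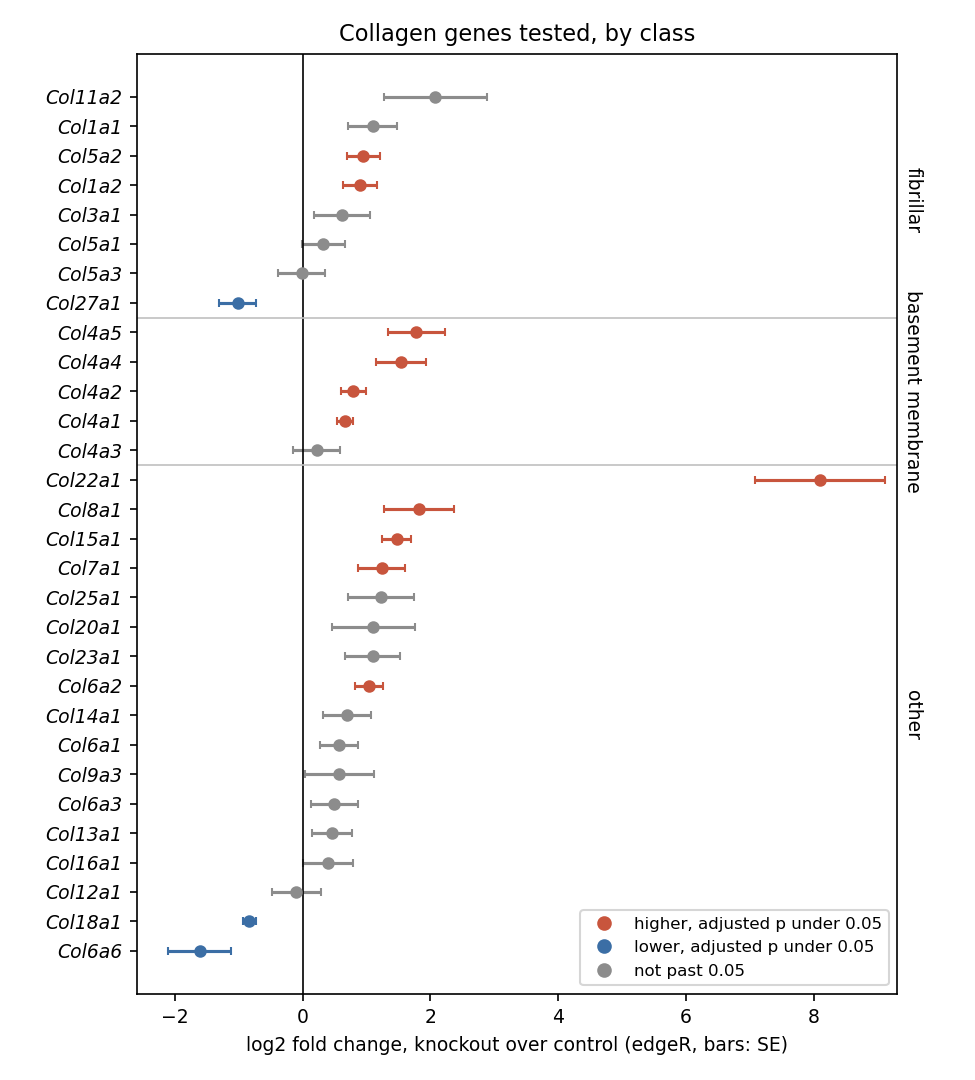
Log2 fold change of each of the 30 tested collagen genes, knockout over control, grouped by class, with bars for 1 standard error from edgeR. Red points passed higher, blue points lower and grey points did not pass. Col22a1 lies far to the right at 8.09, and Col27a1, Col18a1 and Col6a6 are the blue points left of 0.

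By class, 2 of 8 tested fibrillar genes rose and 1 fell, with a median log2 fold change of 0.76, beside 12.6% and 13% of all tested genes, or about 1 gene in 8 each way. Both fibrillar counts were 0 without any 1 knockout. The number that rose was 1 without control 1 or control 2, and the number that fell was 0 without control 2 or control 3. Without control 1 the gene that rose was Col11a2, which is not among the 2. Of 5 tested type IV genes 4 rose and 0 fell, with a median of 0.80. Of the 4, Col4a4 and Col4a5 met the count filter in the knockouts alone. The 4 became 1 without knockout 2 and 2 without knockout 1, knockout 3 or control 2. No type IV gene was lower at an unadjusted p under 0.05 (0 in edgeR) or by DESeq2 (0). Of 17 tested others, 5 rose and 2 fell, with a median of 0.69. Of these, Col8a1 and Col22a1, which rose, met the filter in the knockouts alone, and Col6a6, which fell, in the controls alone. The 5 became 3 without control 2, control 3 or any 1 knockout, and the 2 became 1 without control 1, control 3 or any 1 knockout. Over all tested genes the shares that rose and fell also dropped without control 2, control 3 or any 1 knockout, and grew without control 1. The classes were not tested against each other. Judged by the libraries alone, the knockouts lay wholly above the controls for 4 of 8 fibrillar, 4 of 5 type IV and 6 of 17 other genes, where 23.5% of all tested genes did so. They lay wholly below for 1, 0 and 2 genes of these classes, beside 22.4% of all tested genes (45.9% in either direction). Col4a4, Col4a5, Col8a1, Col22a1 and Col23a1 are among those above, and Col6a6 is among those below. The class counts and medians that hold these genes are therefore not independent of the filter.

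Col18a1 (ENSMUSG00000001435, mm10 chromosome 10, 77052178 to 77166548, minus strand) encodes the chain of type XVIII collagen, a heparan sulphate proteoglycan of basement membranes, and held most of the collagen counts. Its share of all collagen counts was 87.0%, 80.1% and 78.0% in controls 1, 2 and 3 and 67.2%, 65.8% and 65.7% in knockouts 1, 2 and 3. Its level was 1878, 1967 and 1853 CPM in the controls and 1038, 1056 and 1105 CPM in the knockouts. The groups were far apart relative to their spread, at 1899 ± 60.0 and 1066 ± 34.8 CPM (SD, n = 3). This was -0.83 on the log2 scale (SE 0.10, edgeR adjusted p = 0.00161). The fall kept its call in 10 of 11 alternative analyses, and with library size alone it was -0.24 (edgeR adjusted p = 0.099). Slc19a1, on the opposite strand, overlaps 8825 bases of the gene with 812 control and 943 knockout counts, while Col18a1 had 114223 and 100832. Hepatocyte markers fell in the same libraries, and in bulk RNA fewer cells of a type and less RNA per cell cannot be told apart.

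Col18a1 was also the collagen gene with the most ChIP regions. The sample titles name RNA poll III and the series text names Lcmr1, so the protein that was precipitated is not settled by the labels. The control list held 16995 regions and the knockout list 1309, and each comes from 1 library, so no test is possible. In the control list 33.0% of 17132 protein-coding genes had a region in the gene body and 27.8% had one within 2 kb of the start. Only 2 of 42 collagen genes, Col18a1 and Col11a2, had a region in the body, and 2, Col11a2 and Col20a1, had one within 2 kb of the start in the count table. In the knockout list 0 of 42 had either, where 3.23% of protein-coding genes had a region in the body. The knockout list was shorter over all genes, so its lack of collagen regions says nothing of collagens in particular.

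Col18a1 had 39 control regions in its body with 50 summits, which placed it 19th of 17132 genes by number of regions. They covered 25162 bases, or 22.0% of the 114371 bases of the gene, 46th of 17132 by covered bases. The first of these regions spanned an internal start that RefSeq annotates at position 77113705, and all 50 summits lay after that start. In the 52.8 kb from the first start to the internal start there were 0 summits, and the 50 were in the 61.5 kb after it. The first summit lay 56 bases after the internal start, with a fold over background of 6.16 (the authors' own value for each summit). Folds over the gene ran from 3.23 to 12.5 with a median of 4.82, against 5.33 for the whole control list. The longest region spanned 4448 bases. Of the 39 regions, 32 were clear of Slc19a1 and 7 overlapped it. The RNA table gives 1 count per gene, so RNA from the long and the short forms of Col18a1 cannot be told apart.

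**Figure D2:**
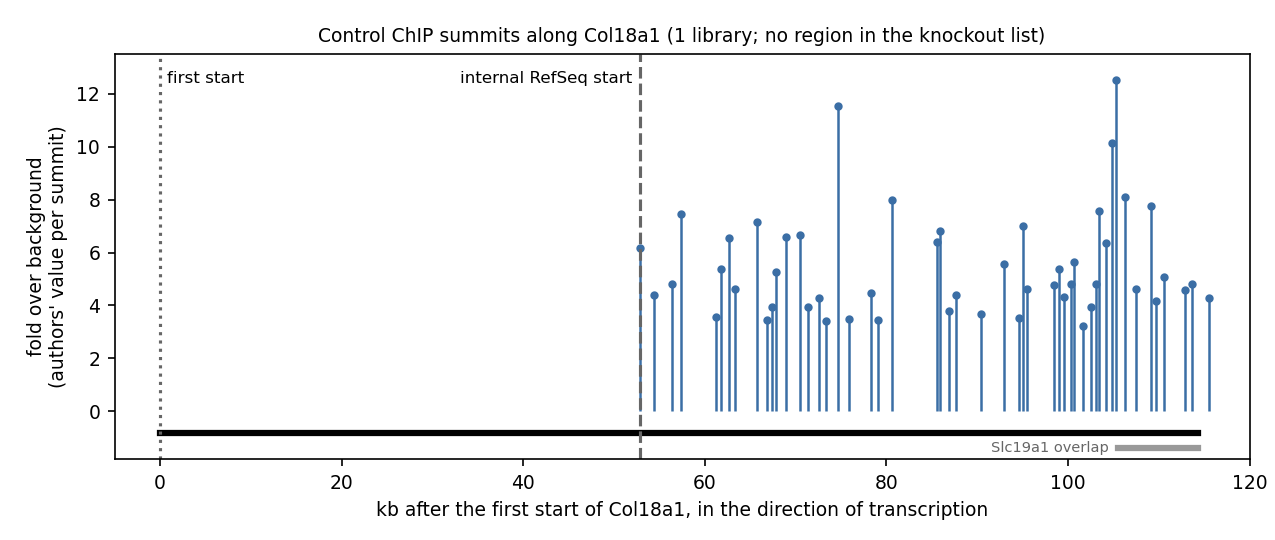
Control ChIP summits along Col18a1 by distance in kb from the first annotated start, with the authors' fold over background on the vertical axis, for 1 library. All 50 summits in the gene body stand to the right of the dashed line at the internal RefSeq start, the nearest 56 bases after it, and the grey bar marks where Slc19a1 overlaps.

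The 250 bases before each of these starts are shown because the first ChIP region spanned one of them and no region reached the other. They come from RefSeq on GRCm38.p6, which shares its coordinates with mm10, and are written 5′ to 3′ on the minus strand. Capitals mark matches on either strand to TATAAA (the TATA box), CCAAT (the CCAAT box), GGGCGG (the GC box) or CAAAGTCCA (an HNF4 motif), and no match overlapped another. The window before the internal start is chr10:77113706-77113955, of which 108 bases lie in the first ChIP region, and the window before the first start is chr10:77166531-77166780.
Col18a1 internal start: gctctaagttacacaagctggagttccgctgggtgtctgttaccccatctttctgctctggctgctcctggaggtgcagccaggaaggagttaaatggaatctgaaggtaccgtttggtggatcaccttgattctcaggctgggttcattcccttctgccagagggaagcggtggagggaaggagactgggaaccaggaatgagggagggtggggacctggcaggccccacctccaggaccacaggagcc
Col18a1 first start: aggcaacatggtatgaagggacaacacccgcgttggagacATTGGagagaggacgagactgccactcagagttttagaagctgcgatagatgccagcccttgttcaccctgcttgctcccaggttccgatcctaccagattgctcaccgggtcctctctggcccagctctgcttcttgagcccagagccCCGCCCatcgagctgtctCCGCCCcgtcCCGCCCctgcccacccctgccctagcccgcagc
The internal window, with 57.6% G and C, held 0 matches to these letters. The first window, with 62.0% G and C, held 1 CCAAT match and 3 GC box matches, the latter beginning 33, 43 and 61 bases before the start.

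RefSeq windows were found for 33 of the 42 collagen genes, 36 windows in all. Of these 21 held GGGCGG on either strand, beside 32.7% of all 32851 windows, and 12 held CCAAT, beside 33.8%. TATAAA was in 5 of the 36, beside 12.4% of all windows, and CAAAGTCCA in 0, beside 0.384%. A match is a description of the letters and not a bound site.

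Type XV is the closest relative of type XVIII, and it moved the opposite way. Col15a1 (ENSMUSG00000028339, chromosome 4, 47208161 to 47313167, plus strand) was at 8.43, 9.82 and 7.27 CPM in controls 1 to 3 and at 24.5, 16.9 and 29.3 CPM in knockouts 1 to 3. All knockouts lay above all controls, with a log2 fold change of 1.47 (SE 0.23, edgeR adjusted p = 0.00393), and the call held in 11 of 11 alternatives. Counting types XV and XVIII with the basement membrane class makes that class 5 higher and 1 lower.

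The type IV genes lie in head-to-head pairs. Col4a1 and Col4a2 encode the chains of the common form found in nearly every basement membrane. Col4a1 (chromosome 8, 11198423 to 11312826, minus strand) was at 35.3, 34.8 and 34.4 CPM in the controls and at 51.4, 64.0 and 49.3 CPM in the knockouts. The controls were nearly equal and the knockouts all higher, with a log2 fold change of 0.66 (SE 0.13, edgeR adjusted p = 0.00867) that passed in 11 of 11 alternatives. Col4a2 (chromosome 8, 11312805 to 11449287, plus strand) was at 20.1, 34.2 and 34.0 CPM in the controls and at 51.2, 53.8 and 48.1 CPM in the knockouts. Control 1 was the low library, and the groups did not overlap (0.80, SE 0.20, edgeR adjusted p = 0.0253). The Col4a2 call was lost without knockout 1, 2 or 3 (edgeR adjusted p = 0.0757, 0.0791 and 0.0567). The 2 genes overlap by 22 bases at their starts, and strand-specific counting is not stated.

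Col4a3, Col4a4 and Col4a5 encode the chains of the specialised network known from the kidney filter, the lung and the ear, and were scarce here. Col4a4 (chromosome 1, 82448423 to 82586849, minus strand) had 8, 12 and 8 control counts and 27, 50 and 52 knockout counts. These are 0.390, 0.572 and 0.431 CPM against 0.872, 1.59 and 1.62 CPM, with a log2 fold change of 1.54 (SE 0.39, edgeR adjusted p = 0.0245). Its call was lost without control 2, control 3, knockout 2 or knockout 3 (edgeR adjusted p from 0.0545 to 0.0812). Col4a4 met the count filter in the knockouts alone, so its call is not independent of that filter. Col4a3, whose start lies 71 bases away on the other strand, had 14, 17 and 10 control counts and 22, 19 and 34 knockout counts. Its groups overlapped at 0.682, 0.811 and 0.539 against 0.710, 0.604 and 1.06 CPM (0.22, SE 0.37, edgeR adjusted p = 0.692).

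Col4a5 (chromosome X, 141475385 to 141689234, plus strand) had 6, 5 and 11 control counts and 33, 54 and 34 knockout counts. At 0.292, 0.238 and 0.592 CPM against 1.07, 1.72 and 1.06 CPM the groups did not overlap (1.78, SE 0.44, edgeR adjusted p = 0.024). The Col4a5 call was lost without control 2, knockout 1 or knockout 2 (edgeR adjusted p = 0.0847, 0.0572 and 0.0836). Col4a5 met the count filter in the knockouts alone, so its call is not independent of that filter. Its neighbour Col4a6, 1308 bases away on the other strand, was not tested, with 6, 6 and 3 counts against 10, 14 and 12.

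**Figure D3:**
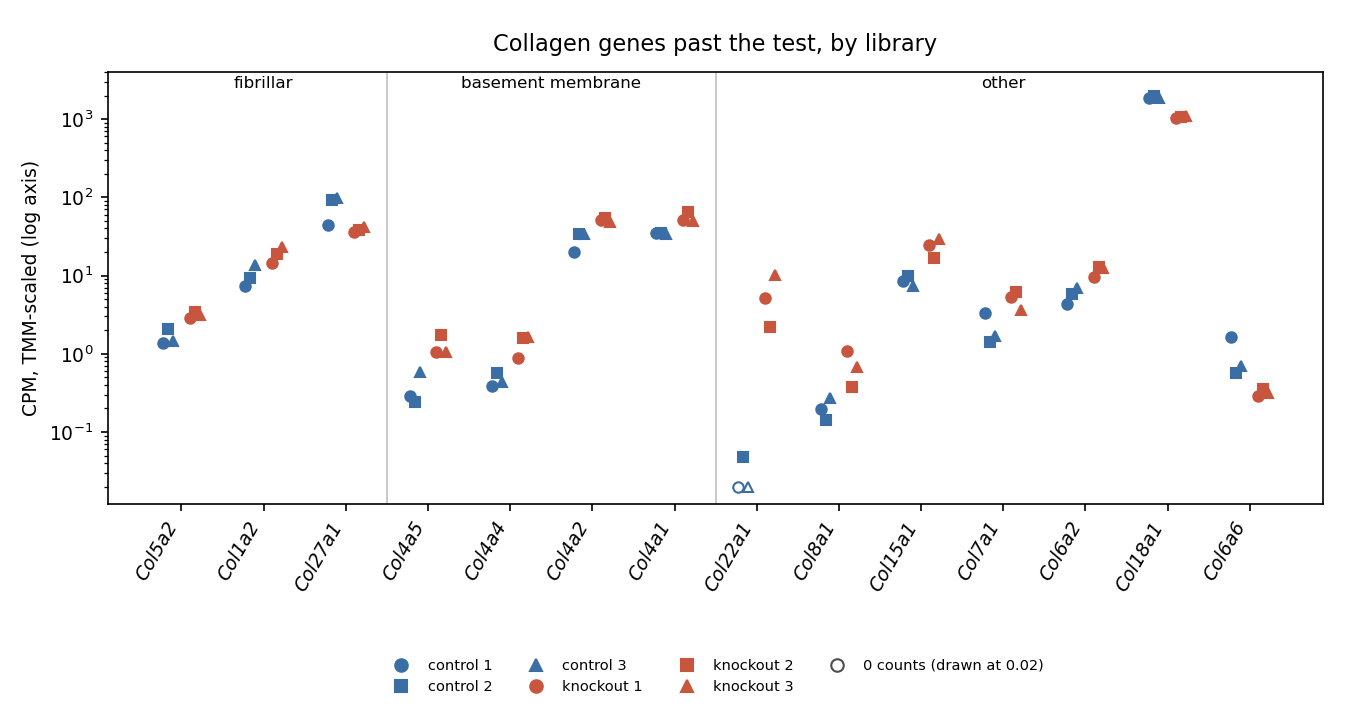
TMM-scaled CPM on a log axis for the 14 collagen genes past the test, with 1 point per library (blue controls, red knockouts). In each of the 14 the groups do not overlap, and Col18a1, at 1038 to 1967 CPM, stands far above the rest in counts that are not corrected for length.

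Among the fibrillar genes, types I and III are the bulk collagens of fibrous tissue. Col1a2 (chromosome 6, 4504814 to 4541544, plus strand), the second chain of type I, was at 7.40, 9.35 and 13.8 CPM in the controls and at 14.4, 19.1 and 23.2 CPM in the knockouts. The lowest knockout was just above the highest control (0.89, SE 0.27, edgeR adjusted p = 0.0437). Its call was lost without any 1 library other than control 3 (edgeR adjusted p from 0.0502 to 0.131). Col1a1 (chromosome 11, 94936224 to 94953042, plus strand), the first chain, was at 4.14, 5.24 and 11.3 CPM in the controls and at 11.7, 13.5 and 18.8 CPM in the knockouts. It did not pass (1.10, SE 0.38, edgeR adjusted p = 0.0751), although the groups did not overlap. Col1a1 passed with DESeq2 (1.08, adjusted p = 0.0184), with a replicate block (edgeR adjusted p = 0.0124), with library size alone (edgeR adjusted p = 0.0118) and without control 3 (1.64, edgeR adjusted p = 0.0124). For Col1a1 the authors' deposited table has 1.08 on the log2 scale, adjusted p = 0.0190, and a mark of significance. Col3a1 overlapped, at 6.23, 15.0 and 22.7 CPM against 16.2, 25.7 and 25.3 CPM (0.62, edgeR adjusted p = 0.341).

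Type V collagen starts and limits the width of type I fibrils. Col5a2 (chromosome 1, 45374321 to 45503282, minus strand) was at 1.36, 2.05 and 1.45 CPM in the controls and at 2.84, 3.46 and 3.12 CPM in the knockouts. The groups were separate (0.95, SE 0.26, edgeR adjusted p = 0.0338), yet the call was lost without any 1 library other than control 2 (edgeR adjusted p from 0.0509 to 0.111). Its usual partner Col5a1 did not pass, at 4.72, 9.68 and 13.8 CPM against 10.8, 12.2 and 12.2 CPM (0.32, SE 0.34, edgeR adjusted p = 0.514). Col5a3 had the most counts of the class. At 75.4, 191 and 195 CPM in the controls and 151, 118 and 188 CPM in the knockouts its groups overlapped, with control 1 lowest (-0.02, SE 0.37, edgeR adjusted p = 0.979). The sign of Col5a3 changed with the setting, for example to 0.56 with library size alone (edgeR adjusted p = 0.268).

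Col27a1 (chromosome 4, 63214004 to 63334991, plus strand), a fibrillar collagen known best from cartilage, went down. It was at 43.6, 93.1 and 98.8 CPM in the controls and at 35.9, 38.2 and 42.2 CPM in the knockouts. Control 1 was close to the knockouts and the other controls were far above (-1.02, SE 0.29, edgeR adjusted p = 0.0429). Without control 1 it was -1.31 (edgeR adjusted p = 7.12e-05), and without any other single library the Col27a1 call was lost (edgeR adjusted p from 0.0886 to 0.122). The call was also lost with upper-quartile factors (edgeR adjusted p = 0.0599), with no count filter (0.144) and with library size alone (-0.44, edgeR adjusted p = 0.265).

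Col11a2 (chromosome 17, 34039437 to 34066685, plus strand), a chain of the cartilage fibril, had the widest spread. It was at 12.0, 1.62 and 1.94 CPM in the controls and at 26.3, 25.0 and 14.7 CPM in the knockouts. Control 1 lay near the lowest knockout and the other controls near 0, and the gene did not pass (2.08, SE 0.80, edgeR adjusted p = 0.112). Without control 1 the log2 fold change was 3.62 (edgeR adjusted p = 0.000188), and with library size alone it was 2.70 (edgeR adjusted p = 0.0276).

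Col11a2 also had a control ChIP region over the start given in the count table. The region was 231 bases long with its summit 21 bases after that start, a fold of 4.63 and a -log10 q of 3.25. RefSeq places the start further upstream, and the 250 bases before that, chr17:34038888-34039137 on the plus strand of GRCm38.p6, end 218 bases short of the region. They are shown, with capitals for the same motifs, as the RefSeq window just upstream of this region.
Col11a2 start: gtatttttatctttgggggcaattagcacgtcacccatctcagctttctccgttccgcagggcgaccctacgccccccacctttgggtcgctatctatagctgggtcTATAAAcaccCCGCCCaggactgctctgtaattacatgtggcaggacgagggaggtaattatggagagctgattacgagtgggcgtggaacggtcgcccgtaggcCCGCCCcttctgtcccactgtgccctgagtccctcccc
It held 1 TATA match, 143 bases before its end, and 2 GC box matches, with 57.6% G and C. The end of Rxrb lies 1043 bases before Col11a2 on the same strand, with 4367 control counts.

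Control 1 was the lowest control library for 7 of 8 tested fibrillar genes, 2 of 5 type IV genes and 6 of 17 others. The share over all tested genes was not counted, and control 1 stood apart from the other controls over all genes. Summed fibrillar levels were 155, 328 and 360 CPM in the controls and 269, 256 and 328 CPM in the knockouts, which overlap. Col5a3 and Col27a1 made up most of that sum, and without them it was 36.0, 43.2 and 65.3 CPM against 82.4, 99.2 and 97.9 CPM, which do not overlap. Col5a3 and Col27a1 are also the 2 tested fibrillar genes with a log2 fold change below 0. The separation without them therefore depends in part on which genes were left out. Summed type IV levels were 57.0, 70.9 and 70.1 CPM against 106, 122 and 102 CPM. All collagens other than Col18a1 summed to 280, 490 and 523 CPM against 506, 549 and 577 CPM, with overlap.

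**Figure D4:**
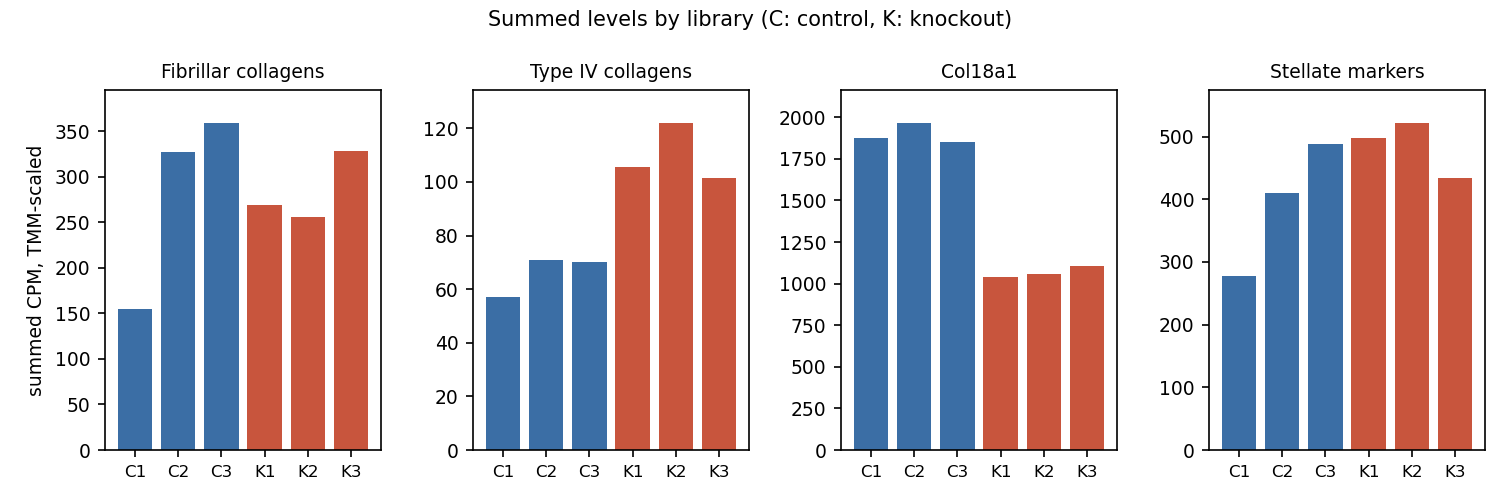
Summed TMM-scaled CPM in each library (C control, K knockout) for fibrillar collagens, type IV collagens, Col18a1 and the stellate cell markers; each panel has its own axis from 0. Only the type IV and Col18a1 panels separate the groups, and control 1 is the lowest bar for the fibrillar, type IV and stellate panels.

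Markers of other liver cells are given beside these values because fibrillar collagens are known from stellate cells. The summed level of 18 stellate cell and fibroblast markers, collagens left out, was 278, 410 and 488 CPM in the controls and 498, 522 and 434 CPM in the knockouts. Of the 17 tested, 0 passed in edgeR, beside 12.6% of all tested genes that rose. By DESeq2 2 were higher, and the median log2 fold change was 0.34. At an unadjusted p under 0.05 in edgeR 4 were higher and 0 lower, and the share of all tested genes at that threshold was not counted. The 4 were Pdgfra (1.02), Pdgfrb (0.69), Lum (0.67) and Rgs5 (0.51). The most abundant, Ecm1, was at 130, 184 and 226 CPM against 226, 219 and 186 CPM. The defining activation marker Acta2 was at 9.74, 3.67 and 2.91 CPM against 6.36, 7.34 and 5.05 CPM, and Tagln was at 0 to 0.195 CPM in the 6 libraries. Endothelial markers summed to 527, 584 and 487 CPM against 659, 824 and 550 CPM, with 1 of 15, Lyve1, higher, beside the same 12.6%. Their median log2 fold change was 0.36, and 5 were higher and 0 lower at an unadjusted p under 0.05 in edgeR, again without an all-gene share. Macrophage markers summed to 362, 435 and 402 CPM against 769, 915 and 866 CPM. Of these 10 of 12 were higher, beside 12.6% of all tested genes, with a median log2 fold change of 0.86. Macrophages are no target of albumin-cre, and the cause of this rise was not tested. Bile duct markers summed to 203, 74.4 and 84.7 CPM against 103, 89.7 and 125 CPM, the high value of control 1 coming mostly from Sox9 at 130 CPM. Mesothelial markers summed to 5.55 CPM at most, and of 3 tested 0 passed in edgeR (0 at an unadjusted p under 0.05, 0 by DESeq2). The part of these cells in the collagen values was not tested.

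Type VI collagen forms beaded filaments around cells. Col6a2 (chromosome 10, 76595762 to 76623630, minus strand) was at 4.33, 5.82 and 7.002 CPM in the controls and at 9.69, 12.9 and 12.6 CPM in the knockouts. The groups were separate (1.04, SE 0.22, edgeR adjusted p = 0.0134), and without knockout 2 the adjusted p was 0.0506 in edgeR. Its partners had overlapping groups. Col6a1 was at 5.41, 10.7 and 11.8 CPM against 11.8, 12.8 and 17.1 CPM (0.58, edgeR adjusted p = 0.19). Col6a3 was at 4.24, 12.0 and 11.3 CPM against 10.8, 13.0 and 15.0 CPM (0.50, edgeR adjusted p = 0.35).

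Col6a6, a scarce alternative chain of type VI, went down. It was at 1.66, 0.572 and 0.700 CPM in the controls and at 0.291, 0.349 and 0.312 CPM in the knockouts, from 34, 12 and 13 counts against 9, 11 and 10. Control 1 was more than the other controls together (-1.61, SE 0.49, edgeR adjusted p = 0.0473). Without control 1 it was -0.99 (edgeR adjusted p = 0.133). The Col6a6 call was also lost without control 3 or any 1 knockout (edgeR adjusted p from 0.0702 to 0.138), with upper-quartile factors (0.0521), with library size alone (0.103) and with a replicate block (edgeR adjusted p = 0.0825). Col6a6 met the count filter in the controls alone, so its call is not independent of that filter.

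Col22a1 (ENSMUSG00000079022, chromosome 15, 71795795 to 72034227, minus strand), known from the junctions of muscle with tendon, had the largest fold change of the tested collagen genes. It had 0, 1 and 0 counts in the controls and 158, 69 and 330 counts in the knockouts. Every knockout was far above every control, and the knockouts themselves differed, at 5.10, 2.19 and 10.3 CPM. The scaled ratio of counts was 354, with a 95% exact interval of 63.3 to 14005 that covers counting error only. The edgeR adjusted p was 0.00208 and the call held in 11 of 11 alternatives. Col22a1 met the count filter in the knockouts alone, so its fold change and call are not independent of that filter. No row of the table overlaps the gene, and its nearest neighbour Trappc9 lies 555393 bases away. It had 0 ChIP regions in either list.

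A pair of further genes of the other class passed with small counts or wide spread. Col7a1 (chromosome 9, 108953586 to 108984875, plus strand), the anchoring fibril chain of skin, was at 3.31, 1.43 and 1.67 CPM in the controls and at 5.36, 6.19 and 3.62 CPM in the knockouts. Control 1 nearly touched the lowest knockout (1.24, SE 0.37, edgeR adjusted p = 0.0441), and the Col7a1 call was lost without any 1 library other than control 1 (edgeR adjusted p from 0.0521 to 0.141). Col8a1 (chromosome 16, 57624258 to 57754737, minus strand), a short-chain collagen of vessel walls, had 4, 3 and 5 control counts and 34, 12 and 22 knockout counts. At 0.195, 0.143 and 0.269 CPM against 1.10, 0.381 and 0.686 CPM it passed (1.82, SE 0.55, edgeR adjusted p = 0.0451). The Col8a1 call was lost without any 1 library other than knockout 2 (edgeR adjusted p from 0.0707 to 0.155), with a replicate block (edgeR adjusted p = 0.0529) and with DESeq2 (adjusted p = 0.058). Col8a1 met the count filter in the knockouts alone, so its call is not independent of that filter.

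The other 10 tested genes outside the fibrillar and type IV classes did not pass, with log2 fold changes from -0.10 (Col12a1) to 1.23 (Col25a1). Besides Col6a1 and Col6a3 they were Col12a1, Col14a1, Col16a1, Col20a1 and Col9a3, which coat fibrils, and the membrane-spanning Col13a1, Col23a1 and Col25a1. Col14a1 was at 16.9, 36.0 and 37.5 CPM against 36.7, 71.1 and 38.1 CPM (0.69, edgeR adjusted p = 0.226). Col23a1, with 6, 4 and 9 counts against 22, 24 and 19, was the one of the 10 whose groups did not overlap (1.10, edgeR adjusted p = 0.0981). Col20a1 was at 7.65, 2.38 and 2.69 CPM against 7.49, 16.1 and 3.83 CPM (1.11, edgeR adjusted p = 0.251). It overlaps 741 bases of 9230112E08Rik on the same strand, with 314 control and 860 knockout counts beside 257 and 862 for Col20a1, so its counts are uncertain. Its single ChIP summit was at -1641 bases from the start, with a fold of 3.73.

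Chains that assemble in 1 molecule were compared as ratios of counts within a library, in which scaling cancels. Type I holds 2 copies of the Col1a1 chain to 1 of the Col1a2 chain, but these ratios were not corrected for transcript length and are read only between groups. The ratio of Col1a1 to Col1a2 was 0.559, 0.561 and 0.816 in controls 1 to 3 and 0.811, 0.709 and 0.810 in knockouts 1 to 3. Its log2 difference of 0.29 had an exact permutation p of 0.4. The smallest p that 3 against 3 libraries can give is 0.1. The ratio of Col4a1 to Col4a2 was 1.76, 1.02 and 1.01 against 1.00, 1.19 and 1.03, with control 1 alone standing out (-0.19, exact permutation p = 0.7, and 0.08 without control 1). The ratio of Col5a1 to Col5a2 was 3.46, 4.72 and 9.48 against 3.82, 3.52 and 3.90 (-0.51, exact permutation p = 0.4, and -0.10 without control 3). The ratio of Col6a1 to Col6a2 was 1.25, 1.84 and 1.69 against 1.21, 0.990 and 1.35 (-0.42, exact permutation p = 0.2). Adjusted over these 4 pairs, the exact permutation p-values were 0.533, 0.7, 0.533 and 0.533.

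For the other type IV pairs, added after the data were seen, the ratio of Col4a4 to Col4a3 was 0.571, 0.706 and 0.800 in controls 1 to 3 and 1.23, 2.63 and 1.53 in knockouts 1 to 3. Every control had fewer Col4a4 than Col4a3 counts and every knockout had more. The log2 difference was 1.28 with an exact permutation p of 0.1, the smallest possible, and 0.48 adjusted over 6 pairs. The ratio of Col4a5 to Col4a6 was 1.00, 0.833 and 3.67 against 3.30, 3.86 and 2.83, with control 3 among the knockouts (1.19, exact permutation p = 0.3, adjusted 0.48).

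**Figure D5:**
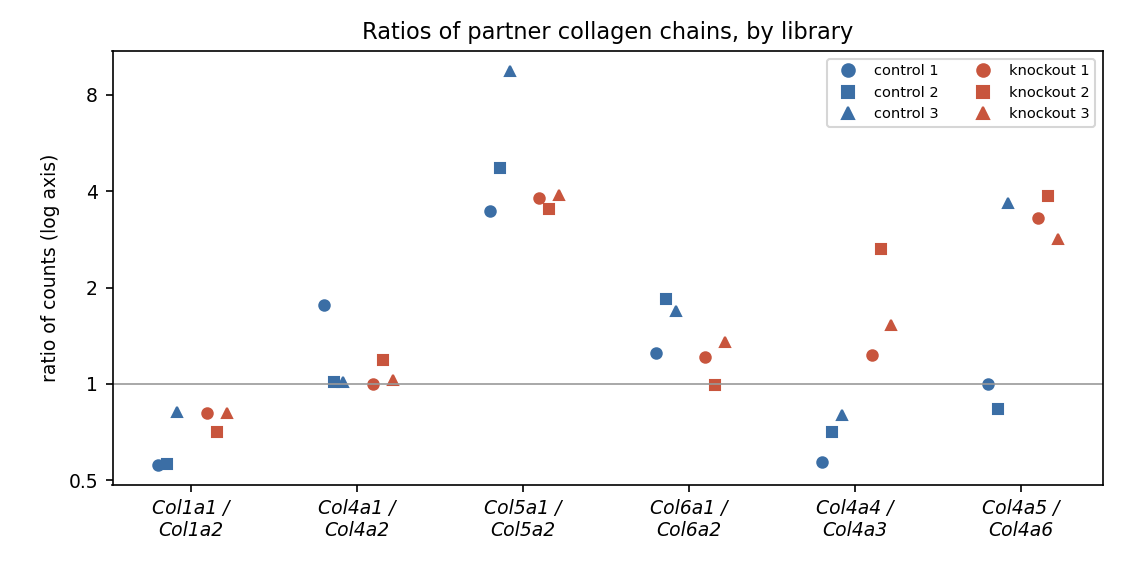
Ratio of counts of partner chains in each library, on a log axis, controls blue and knockouts red; the line marks equal counts. Only Col4a4 over Col4a3 separates the groups, with controls from 0.571 to 0.800 and knockouts from 1.23 to 2.63.

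Before secretion, collagen chains are hydroxylated, glycosylated and folded in the endoplasmic reticulum. Of 21 tested genes for these steps 3 rose and 4 fell, shares near the 12.6% and 13% of all tested genes, with a median log2 fold change of 0.13 beside 0.01 over all. Ppib, a prolyl isomerase of the collagen hydroxylation complex, was at 96.8, 102 and 102 CPM in the controls and at 44.3, 44.3 and 44.1 CPM in the knockouts (-1.18, edgeR adjusted p = 0.000384). P4hb, the shared subunit of the prolyl hydroxylases and a general disulphide isomerase, was at 2438, 2185 and 2183 CPM against 1220, 1209 and 1196 CPM (-0.91, edgeR adjusted p = 0.00129). Both stayed lower in 11 of 11 alternatives. Mia3, which loads collagen into transport carriers (-0.65), and Tmem38b (-0.57) also fell, except with library size alone (-0.06 and 0.02). Colgalt2, a collagen galactosyltransferase, rose by 2.74 (edgeR adjusted p = 0.00196) and Crtap, Ppib's partner in the complex, by 0.84 (edgeR adjusted p = 0.0121). Both held in 11 of 11 alternatives, and Creb3l1 (1.08), a membrane-bound transcription factor known to act on Col1a1, held in 6.

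After secretion the ends of fibrillar procollagen are trimmed and the fibrils crosslinked. Of 9 tested genes 3 rose and 0 fell, beside 12.6% and 13% of all tested genes, with a median of 0.48. The genes lower at an unadjusted p under 0.05 in edgeR were 0, and by DESeq2 0. Pcolce, an enhancer of the trimming of the carboxyl end, was at 4.72, 7.15 and 8.89 CPM in the controls and at 104, 79.4 and 126 CPM in the knockouts. The lowest knockout was far above the highest control (3.90, SE 0.28, edgeR adjusted p = 0.000351), in 11 of 11 alternatives. The proteinase it enhances, Bmp1, rose by 0.41 (edgeR adjusted p = 0.0348, kept in 5 of 11 alternatives). Adamts2, which trims the amino end, rose by 0.84 (edgeR adjusted p = 0.0364, kept in 7). The crosslinking enzyme Lox was at 0.0477 to 0.281 CPM and was not tested.

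Of 10 tested collagen receptors 3 rose and 0 fell, beside 12.6% and 13% of all tested genes, with a median of 0.49. The receptors lower at an unadjusted p under 0.05 in edgeR were 0, and by DESeq2 0. Ddr1, a tyrosine kinase receptor for collagen, was at 4.43, 2.53 and 3.72 CPM against 11.7, 6.77 and 9.60 CPM (1.40, edgeR adjusted p = 0.0114). The Ddr1 call was lost without knockout 1 (edgeR adjusted p = 0.0515). The uptake receptor Mrc2 rose by 1.04 and the integrin chain Itga1 by 0.55, and their calls held in 8 and 7 of 11 alternatives. Of 13 tested genes of collagen breakdown 4 rose and 0 fell, beside 12.6% and 13% of all tested genes, with a median of 0.60. At an unadjusted p under 0.05 in edgeR 1 was lower, and by DESeq2 0 were. Fap, a serine protease known from fibroblasts, was at 0.0974, 0.381 and 0.162 CPM against 2.32, 1.62 and 2.46 CPM (3.28, edgeR adjusted p = 0.00323, kept in 11 of 11 alternatives). Mmp19 rose by 0.51, Ctsb by 0.47 and the inhibitor Timp3 by 1.22, kept in 7, 5 and 5 of 11 alternatives.

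Of 16 tested laminins and other basement membrane genes 2 rose and 1 fell, a share no higher than the 12.6% and 13% of all tested genes, with a median of 0.44. Nid1, which bridges laminin and type IV collagen, rose by 0.84 (edgeR adjusted p = 0.0337, kept in 7 of 11 alternatives), and Lama4 by 0.68 (edgeR adjusted p = 0.0438, kept in 3). Lama3, a laminin chain of epithelia, was at 6.67, 7.10 and 5.49 CPM in the controls and at 1.36, 2.51 and 2.24 CPM in the knockouts (-1.65, edgeR adjusted p = 0.00537, kept in 11). Of 18 tested genes of TGF-beta signalling, the best known inducer of collagen transcription, 5 rose and 1 fell, beside the same 12.6% and 13%, with a median of 0.48. Ctgf, a classical target, was at 4.48, 4.86 and 5.28 CPM against 8.20, 14.5 and 12.2 CPM (1.26, edgeR adjusted p = 0.008, kept in 11 of 11 alternatives). Ltbp4, which holds latent TGF-beta in the matrix, rose by 0.76 (edgeR adjusted p = 0.0136, kept in 11). Ltbp3 (0.84), Smad7 (0.77) and Smad2 (0.48) also rose, kept in 7, 7 and 3. Smad3, the signal transducer, fell by 0.52 (edgeR adjusted p = 0.0119), and with library size alone it was 0.06 (edgeR adjusted p = 0.678). Tgfb1 and the other members did not pass.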

How the data were processed

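RNA was measured in 6 libraries and ChIP in 2. Counts in the deposited table are whole numbers, 1 row per Ensembl gene on mm10. The submitters' processing notes name HISAT2 2.1.0, Bowtie2 2.2.3 and HTSeq 0.6.0 without roles, and no source used here states how strand was treated. The same table carries the authors' fold change (ratio), log2 fold change, p-values and a mean normalised signal, of which the log2 and adjusted p are printed only where the authors' deposited table is named. Each ChIP library has its own narrowPeak list, in which the authors deposited for every summit a score, a fold (ratio) and -log10 values of p and q. MACS2 is named in the submitters' processing notes, and no source used here states whether an input library served as background.

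The filterByExpr function (minimum count 10, total 15) kept 15135 genes, which were scaled by TMM and fitted with edgeR 4.0.16 in R 4.3.3 (robust quasi-likelihood, two-sided, genotype only, Benjamini-Hochberg over all genes tested, threshold 0.05). The fitting script was tested on simulated data. The alternatives were library size alone, upper-quartile factors, DESeq2 1.42.0, no count filter, a replicate block and each library left out. Partner ratios used log2 of counts plus 0.5 and exact two-sided permutation tests. The collagen genes, classes and 12 lists (172 of 178 entries in the table) were chosen with earlier results of these data known, and no list was tested as a set. The count of bile duct markers past the threshold is not reported here. The rule for named genes took members past the threshold, the most abundant of each class and the partners of 4 pairs, and in each list the 2 rises and 2 falls with the smallest adjusted p; others are named where few passed, after their values were seen. Transcript lengths were not used here, so abundance within a class is by counts, and no level is compared between genes per length. Group and replicate numbers came from sample titles, and 0 columns of per-sample values were left without a sample.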

Additional observations from a re-analysis of the deposited data

How the results depend on the processing

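With library size alone, 18 collagen genes were higher and 0 lower, with 4 and 0 fibrillar, 4 and 0 type IV and 10 and 0 other genes, and class medians of 1.33, 1.37 and 1.26 for the fibrillar, type IV and other classes, beside 0.60 for all genes. Over all tested genes 50.9% were then higher and 4.08% lower. Upper-quartile factors left 11 higher and 1 lower (0 fibrillar, 1 other), beside 15% and 10.7% of all tested genes. Without the count filter 0 fibrillar genes were lower and the median of the other class was 1.06, with more low-count genes tested. Over all genes without that filter 7.6% were higher and 6.7% lower. DESeq2 gave 11 higher and 3 lower, beside 11.6% and 12.6% of all genes it tested. With types XV and XVIII counted as basement membrane, that class had 1 lower and the other class 1 lower.

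Leaving out 1 library at a time gave 4 to 9 collagen genes higher and 1 to 2 lower. These were 0 to 2 fibrillar, 1 to 4 type IV and 3 to 4 other genes higher, and 0 to 1 fibrillar, 0 to 0 type IV and 1 to 2 other genes lower. The fewest higher, 4, came without knockout 2, 5 came without knockout 1 or knockout 3, and 6 without control 2. Over all tested genes the higher share was then 7.88%, 7.29%, 8.37% and 7.21%, in place of 12.6%. The lower share was 8.71%, 7.11%, 8.87% and 8.13%, in place of 13%. Without control 1 the shares were 15.3% higher and 16% lower, with 9 collagen genes higher and 2 lower. Without control 1, control 3 or any 1 knockout 1 gene of the other class was lower. Col4a1, Col15a1 and Col22a1 kept their calls in all 11 alternatives, and Col18a1 and Col6a2 in 10. Of these, Col22a1 met the count filter in the knockouts alone, and the others met it in both groups.

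Signs changed for 5 values. Col5a3 was 0.56 with library size alone, 0.052 with upper-quartile factors, 0.0027 without the filter, 0.079 with a replicate block, 0.16 and 0.19 without controls 2 and 3 and 0.13 without knockout 2, in a range of -0.35 to 0.19 over single libraries left out. Col12a1 was 0.51 with library size alone, 0.34 without control 1 and 0.045 without knockout 1 (range -0.40 to 0.34). Col5a1 was -0.0017 without control 1 (up to 0.70 without control 3), Col4a3 -0.060 without knockout 3 (up to 0.37 without knockout 2), and the log2 ratio of Col4a1 to Col4a2 0.076 without control 1 (down to -0.32 without control 3). The cause was not tested. Removing 1 library changed the other pair ratios over 0.19 to 0.47 for Col1a1 and Col1a2, -0.82 to -0.10 for Col5a1 and Col5a2 and -0.58 to -0.29 for Col6a1 and Col6a2.

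Whether the replicate numbers pair the libraries was not settled. Same-numbered control and knockout deviations correlated weakly, at 0.126, 0.0505 and 0.112, although each library correlated best with its own number. With a replicate block 11 collagen genes were higher and 2 lower, beside 11.3% and 11.6% of all tested genes. Of the lower genes 1 was in the other class, and the pair differences stayed the same by construction. Requiring a -log10 q of at least 5 in the control ChIP list left 1 collagen gene with a region in its body, 0 with one at the start and 14 regions over Col18a1. Members with few counts, such as Col4a4, Col4a5, Col6a6 and Col8a1, are limited by counting error.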
